A study of Mus musculus with 8 samples.

Results

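The 9 genes described here are Ppara, Pparg, Cpt1a, Acadm, Acadl, Acadvl, Hadha, Hadhb and Pdk4, genes of fatty acid oxidation and its control by the peroxisome proliferator-activated receptors (PPARs). They were chosen by symbol, and they are 9 of the 35963 gene symbols in the table of RNA sequencing counts. All 9 passed the filter on low counts, which kept 15893 genes. The set also goes by the name of ketogenesis, but none of the 9 encodes a ketogenic enzyme.

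The data are 8 RNA libraries of colonic epithelial cells, released from the flushed colons of 4-week-old mice with a cell-release buffer and described as proximal colon in the study's design. The 4 libraries labelled Ccna2-KO came from Ccna2 fl/fl vil-Cre mice, in which Cre recombinase is driven by the villin promoter, active in the epithelium of the small and large intestine. The 4 control libraries, labelled WT, came from Ccna2 fl/fl mice, so both groups carried the same Cre target sites in Ccna2, the gene of the S-phase cyclin A2. The comparison asks how loss of cyclin A2 from the intestinal epithelium changes the RNA of these cells. Whether each library comes from its own mouse is not stated in the labels, and p-values here speak only of the spread from library to library, which may be technical.

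Long-chain fatty acids enter mitochondria as carnitine esters made by carnitine palmitoyltransferase 1, and are then shortened in cycles by acyl-CoA dehydrogenases of different chain-length preference and by the trifunctional protein. PPARα and PPARγ are nuclear receptors that bind fatty acids and, paired with a retinoid X receptor, act on many genes of this pathway. In the colon the short-chain fatty acid butyrate, made by bacteria, is the main fuel of absorptive epithelial cells, and PPARγ is abundant in their differentiated state.

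Each library held 27162083 to 34386731 estimated counts. Ccna2 itself stood at 18.2, 26.6, 26.6 and 16.2 CPM (counts scaled to the library size) in Ccna2-KO replicates 1 to 4, against 54.3, 25.9, 11.9 and 18.3 CPM in control replicates 1 to 4, so its RNA did not separate the groups and the group names follow the labels. Control replicate 1 stood apart on the second principal component (23.8% of the variance), at -74.2 where the other 7 libraries lay between -4.37 and 33.8. On the first component (49.9%) it lay between the groups, at 8.8. The Ccna2-KO libraries lay there between -50.6 and -28.1, and control replicates 2, 3 and 4 between 49.3 and 57.4. The labels also number the libraries, in a low set of 595 to 598 (Ccna2-KO replicate 4 and control replicates 2, 3 and 4) and a high set of 621 to 641 (Ccna2-KO replicates 1, 2 and 3 and control replicate 1), without saying what the numbers stand for. Values within these sets have a single library in 1 group, so they carry no test. The 8 epithelial markers summed to 17100 to 23020 CPM in Ccna2-KO libraries and 17560 to 19810 CPM in control libraries, and none of them passed the test by edgeR (1 at an unadjusted p under 0.05).

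Of the 9 genes, Acadm fell in Ccna2-KO cells and none rose, by edgeR's quasi-likelihood test with Benjamini-Hochberg adjustment over all 15893 genes at a threshold of 0.05. That is 11.1% of the 9, against a background of 12.1% of all genes tested, 6.40% higher and 5.71% lower. Unadjusted, 3 of the 9 had a p under 0.05, as did 4176 of the 15893. DESeq2 called 2 of the 9 lower (Ppara and Acadm) and 1 higher (Acadl), and limma voom 1 lower and 1 higher. Over all 15893 genes DESeq2 called 1431 lower and 1518 higher, and limma voom 838 lower and 1129 higher. The median log2 fold change of the 9 was -0.15, against -0.01 over all genes tested, where negative values are lower in Ccna2-KO. Summed, the 9 genes stood at 1989 to 2236 CPM in Ccna2-KO libraries and at 1818 to 2454 CPM in control libraries, of which control replicate 1 was the lowest. Acadm lay below and Acadl above the controls in every Ccna2-KO library, so 2 of 9 genes had groups that did not overlap, where 19.0% of all genes tested did (9.41% above and 9.60% below).

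**Figure D1:**
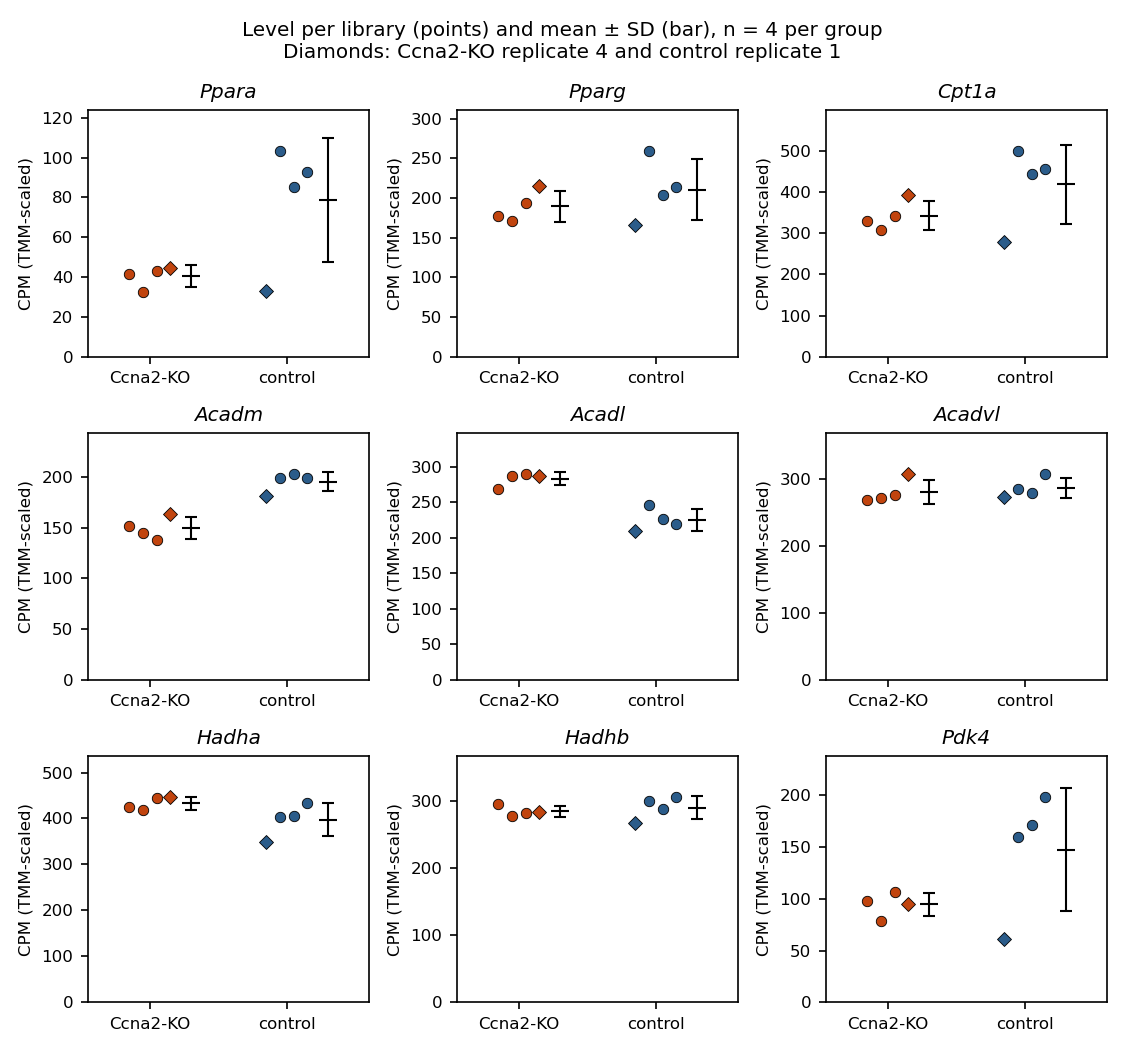
Level of each of the 9 genes in CPM in the 4 Ccna2-KO and 4 control libraries, with the mean and SD of each group as bars. Acadm lies lower and Acadl higher in all 4 Ccna2-KO libraries, and control replicate 1 (diamond) lies far below the other controls for Ppara, Cpt1a and Pdk4.

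The DNA upstream of the genes whose groups lay apart is shown here first. Acadl and Acadm act side by side in the pathway but lay on opposite sides of the controls, and the 250 bases before the RefSeq start of each (RefSeq promoter table, GRCm38.p6) are given on the gene's strand, at chr1:66863310-66863559 for Acadl and chr3:153944644-153944893 for Acadm, both on the minus strand. Capitals mark the GC box GGGCGG in Acadl and the nuclear receptor half-site AGGTCA in Acadm, each on either strand.
Acadl: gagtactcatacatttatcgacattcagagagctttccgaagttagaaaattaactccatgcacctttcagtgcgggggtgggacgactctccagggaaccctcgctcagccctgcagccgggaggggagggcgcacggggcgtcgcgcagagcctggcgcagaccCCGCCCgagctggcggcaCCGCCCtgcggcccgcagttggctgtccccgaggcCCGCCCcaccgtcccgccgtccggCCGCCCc
Acadm: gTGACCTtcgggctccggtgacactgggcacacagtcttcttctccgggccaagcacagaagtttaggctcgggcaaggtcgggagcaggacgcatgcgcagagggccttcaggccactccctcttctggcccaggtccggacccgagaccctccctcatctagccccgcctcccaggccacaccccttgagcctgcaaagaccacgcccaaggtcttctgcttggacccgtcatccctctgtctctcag
Hadha and Hadhb, which encode the subunits of 1 enzyme, point away from each other on chromosome 5, and their GENCODE starts lie 86 bases apart. The 85 bases between those starts, chr5:30155163-30155247 on the plus strand (GRCm38.p6, read toward Hadhb), are given with their GC boxes in capitals.
Hadha and Hadhb: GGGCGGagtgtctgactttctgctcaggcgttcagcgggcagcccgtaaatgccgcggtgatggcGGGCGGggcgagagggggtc
The Acadl window held 4 GC boxes, at -84, -66, -31 and -7 from its RefSeq start, and the stretch between Hadha and Hadhb held 2. The Acadm window held no GC box and 1 half-site, at -249.

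The search covered 300 bases around each RefSeq start, 250 before and 50 after. It looked for direct repeat 1 (the half-site AGGTCA, any 1 base, and AGGTCA again, the arrangement that PPAR and retinoid X receptor pairs bind) on both strands, for the half-site alone on both strands, TATAAA on the gene's strand and CCAAT on both strands. The GC box GGGCGG was added to the search after these sequences had been seen. No window of the 9 genes held the exact direct repeat, which 0.0396% of 32851 mouse promoters held. The direct repeat contains the half-site by construction, and apart from that the matches in the printed sequences did not overlap another motif. A half-site lay in the windows of Acadm, Pparg, Acadvl and Cpt1a (4 of 9 genes, against 16.3% of promoters), a CCAAT box in those of Pdk4, Pparg and Cpt1a (3 of 9, against 37.4%), a TATA box in none (8.32%), and a GC box in 6 of 9 (35.7%). Pparg had several windows and was counted if any matched, while the promoter shares count single windows, so the measures are not alike. The windows of Hadha and Hadhb overlap. The GC box of Hadha at -188 is the same stretch as that of Hadhb at -90 and was counted for both genes. A match describes these letters and shows no binding, and no match says only that the letters are not in the window.

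Ppara encodes PPARα, the receptor that drives fatty acid oxidation in fasted liver. It spans chr15:85734983-85802819 on the plus strand (GENCODE, GRCm38). Its level was 41.5, 32.4, 43.1 and 44.6 CPM in Ccna2-KO replicates 1 to 4, against 33.0, 103, 85.4 and 92.9 CPM in control replicates 1 to 4. The 4 Ccna2-KO libraries lay close together, 3 controls lay far above them, and control replicate 1 lay at the Ccna2-KO level, so the groups overlapped. The log2 fold change was -0.96 (SE 0.30), which did not pass (edgeR adjusted p = 0.0680). Without control replicate 1 it was -1.21 with an edgeR adjusted p of 0.000170, and with a term for the number set it was -0.42 with an adjusted p of 0.333. Within the low set the difference was -1.07 on the log2 scale (Ccna2-KO replicate 4 against 3 controls), and within the high set it was 0.24 (3 Ccna2-KO libraries against control replicate 1). The Ppara difference therefore had opposite signs in the number sets and rested on which controls were used. DESeq2 called Ppara lower over all 8 libraries (adjusted p = 0.0170).

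Pparg encodes PPARγ, known in the colon for its part in epithelial differentiation and elsewhere for the making of fat cells. It lies at chr6:115360951-115490399 on the plus strand. Pparg stood at 178, 171, 194 and 215 CPM in Ccna2-KO replicates 1 to 4, against 166, 259, 203 and 214 CPM in control replicates 1 to 4. The groups overlapped, with the lowest and the highest value both among the controls. A log2 fold change of -0.15 (SE 0.15) resulted, with an edgeR adjusted p of 0.569. Its sign turned to 0.03 with a term for the number set.

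Per transcript, Pparg RNA was mostly of forms that encode the shorter protein of 475 residues. The 3 transcripts matched to that protein made up 75.5%, 10.63% and 4.91% of the gene in Ccna2-KO libraries, against 74.5%, 10.97% and 4.57% in control libraries, as means over 4 libraries. The form that encodes 505 residues, the one typical of fat tissue, made up 0.546% in Ccna2-KO and 0.442% in control libraries. Estimated counts shared between near-identical transcripts are uncertain, so these shares are estimates. Of the 7 fat cell markers listed, Adipoq, Plin1, Lep, Retn and Cfd held at most 2 counts in any library. Adig held 2 to 3 counts in Ccna2-KO and 4 to 11 counts in control libraries, and Pck1, which intestinal epithelium also makes, held 1555 to 2037 counts in Ccna2-KO and 4382 to 6622 counts in control libraries. Over the 9 genes, 37 of 39 listed transcripts were tested, and none was called, where 0.930% of 38384 transcripts were (edgeR, adjusted over all transcripts). At an unadjusted p under 0.05 there were 5 of the 37, 1 each of Ppara, Pparg, Cpt1a, Acadm and Acadl. The unadjusted share over all 38384 transcripts was not counted, so these 5 have no background to be read against.

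Cpt1a encodes the liver form of carnitine palmitoyltransferase 1, the entry step of long-chain fatty acids into mitochondria, and is a well-known PPARα target. It spans chr19:3322334-3385733 on the plus strand. Cpt1a stood at 329, 308, 342 and 393 CPM in Ccna2-KO replicates 1 to 4, against 280, 500, 444 and 456 CPM in control replicates 1 to 4. Here 3 controls lay above all Ccna2-KO libraries and control replicate 1 lay below them. The log2 fold change of -0.29 (SE 0.18) did not pass (edgeR adjusted p = 0.342). It was -0.44 without control replicate 1, with an adjusted p of 0.0125, and -0.01 with the number set as a term. Within the sets the differences were -0.25 (low) and 0.22 (high). Cpt1a RNA was split over several forms. The one highest on average over the 8 libraries (126 CPM in Ccna2-KO and 119 CPM in control libraries) had a log2 fold change of 0.10 (SE 0.19), and the one highest in controls (94.0 CPM in Ccna2-KO and 138 CPM in control libraries) had -0.54 (SE 0.20), with edgeR adjusted p over all transcripts of 0.945 and 0.353.

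**Figure D2:**
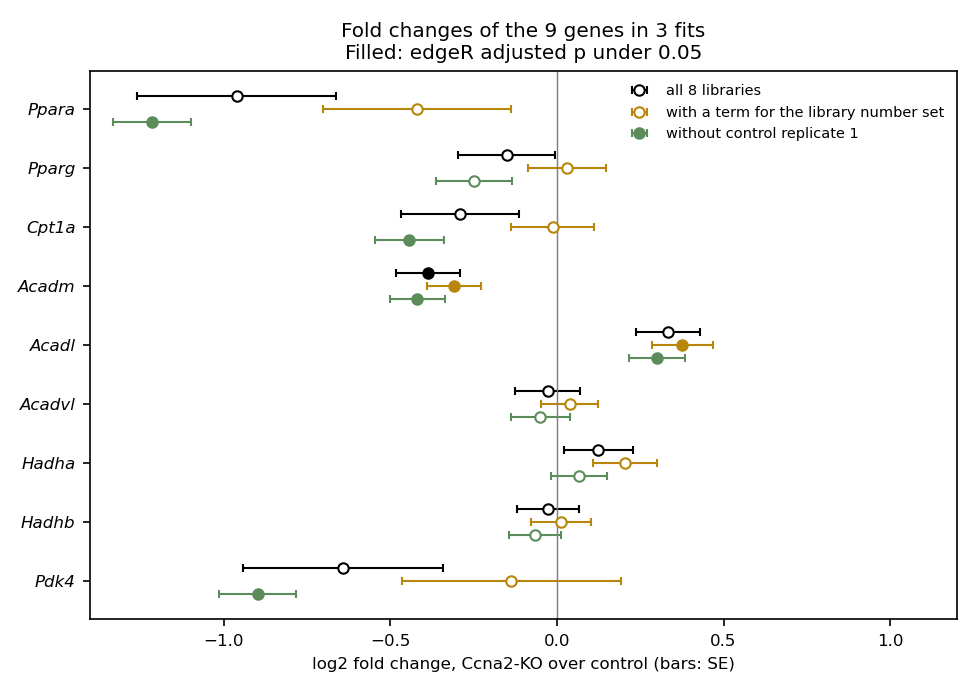
log2 fold change of the 9 genes, Ccna2-KO over control, with its SE, from edgeR fits of all 8 libraries, of all 8 with the number set as a term, and of 7 without control replicate 1. Filled points have an adjusted p under 0.05. Acadm and Acadl keep their place in the 3 fits, while Ppara, Cpt1a and Pdk4 move with the fit.

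Acadm encodes the medium-chain acyl-CoA dehydrogenase, which opens the oxidation cycle of medium-chain fatty acids, and lies at chr3:153922357-153944632 on the minus strand. Acadm stood at 152, 145, 138 and 163 CPM in Ccna2-KO replicates 1 to 4, against 181, 199, 203 and 199 CPM in control replicates 1 to 4. Every Ccna2-KO library lay below every control, with means of 149 ± 10.9 CPM in Ccna2-KO and 195 ± 9.46 CPM in control libraries (SD, n = 4 each). On the log2 scale Acadm fell by 0.39 (SE 0.096), with an edgeR adjusted p of 0.0297. The difference was of like size within both number sets, at -0.29 in the low and -0.33 in the high set. The call was close to the threshold: it was lost in 6 of the 8 fits that left out 1 library (all but those without Ccna2-KO replicate 4 or control replicate 1), with adjusted p up to 0.103, and the log2 fold change stayed between -0.43 and -0.35.

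Acadl encodes the long-chain acyl-CoA dehydrogenase, which acts on long and branched chains, and lies at chr1:66830839-66863277 on the minus strand. Its levels were 269, 287, 290 and 288 CPM in Ccna2-KO replicates 1 to 4, against 209, 246, 226 and 219 CPM in control replicates 1 to 4. Every Ccna2-KO library lay above every control. The log2 fold change of 0.33 (SE 0.095) missed the threshold narrowly (edgeR adjusted p = 0.0506). It was 0.32 within the low set and 0.43 within the high set, 0.38 with the number set as a term (adjusted p = 0.0211) and 0.30 without control replicate 1 (adjusted p = 0.0242). DESeq2 called it higher with an adjusted p of 0.00125, and limma voom with 0.0443. It did not pass with RLE scaling (0.0525), with no filter on low counts (0.0964), with the replicate number as a block (0.181) or in the 7 other fits that left out 1 library (0.0641 to 0.134).

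Read within each library, where scaling between libraries drops out, the ratio of Acadl to Acadm counts was 1.774, 1.984, 2.102 and 1.761 in Ccna2-KO replicates 1 to 4, against 1.152, 1.239, 1.117 and 1.103 in control replicates 1 to 4. The lowest Ccna2-KO ratio exceeded the highest control ratio, and control replicate 1 lay among the other controls. This pair was taken for its values, so the ratio is a description with no test.

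**Figure D3:**
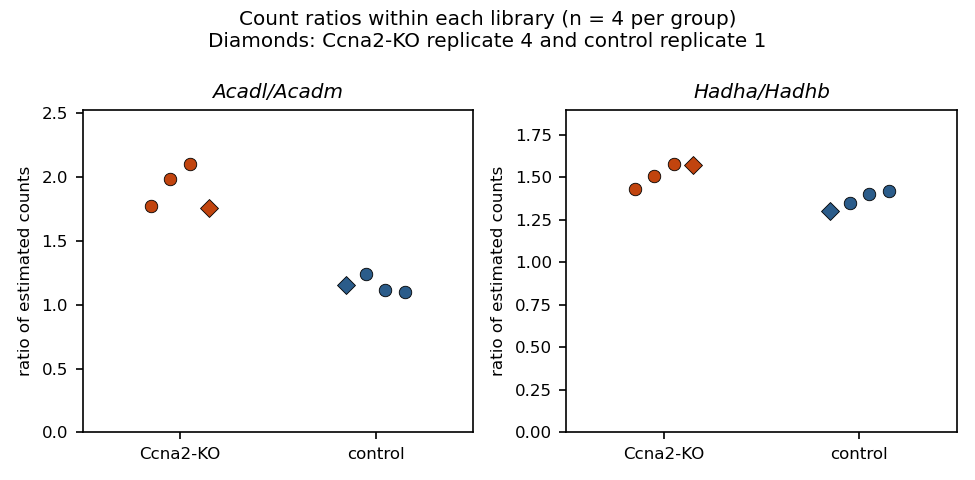
Ratio of estimated counts within each library for Acadl over Acadm (left) and Hadha over Hadhb (right), in 4 Ccna2-KO and 4 control libraries. The Acadl to Acadm ratio is 1.761 to 2.102 in Ccna2-KO and 1.103 to 1.239 in control libraries, and both pairs were chosen after their values had been seen.

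Acadvl encodes the very long-chain acyl-CoA dehydrogenase, bound to the inner mitochondrial membrane, and lies at chr11:70010183-70015411 on the minus strand. It stood at 268, 271, 276 and 307 CPM in Ccna2-KO replicates 1 to 4, against 272, 285, 279 and 307 CPM in control replicates 1 to 4. The groups lay on top of each other, with a log2 fold change of -0.03 (SE 0.097, edgeR adjusted p = 0.897). Acads, the short-chain member of the family and the one that acts on butyryl-CoA, had a log2 fold change of -0.07 (SE 0.12) with an edgeR adjusted p of 0.782.

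Hadha and Hadhb encode the α and β subunits of the mitochondrial trifunctional protein, which carries out the remaining steps of the cycle on long chains. They lie at chr5:30118304-30155162 (minus strand) and chr5:30155248-30184593 (plus strand). Hadha stood at 425, 418, 444 and 446 CPM in Ccna2-KO replicates 1 to 4, against 348, 404, 405 and 434 CPM in control replicates 1 to 4, and Hadhb at 297, 278, 282 and 284 CPM against 267, 300, 289 and 306 CPM in the same order. Both genes overlapped between the groups, although 2 Ccna2-KO libraries had more Hadha than any control. The log2 fold change was 0.12 (SE 0.10) for Hadha and -0.03 (SE 0.093) for Hadhb, with edgeR adjusted p of 0.503 and 0.891. The ratio of Hadha to Hadhb counts was 1.432, 1.504, 1.577 and 1.572 in Ccna2-KO replicates 1 to 4, against 1.302, 1.348, 1.401 and 1.417 in control replicates 1 to 4. All 4 Ccna2-KO ratios lay above the controls by a small margin, and this ratio too was taken for its values and has no test.

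Pdk4 encodes a kinase that inactivates pyruvate dehydrogenase and so favours fatty acids over glucose as fuel, and it is a PPAR target in several tissues. It lies at chr6:5483351-5496309 on the minus strand. Pdk4 stood at 97.8, 78.8, 106 and 95.0 CPM in Ccna2-KO replicates 1 to 4, against 61.2, 159, 171 and 198 CPM in control replicates 1 to 4. The pattern was that of Cpt1a, with 3 controls above all Ccna2-KO libraries and control replicate 1 below them. Its log2 fold change of -0.64 (SE 0.30) did not pass (edgeR adjusted p = 0.213). It was -0.90 without control replicate 1 (adjusted p = 0.000713), and -0.14 with the number set as a term (adjusted p = 0.809). Within the sets the difference was -0.89 in the low and 0.62 in the high set, so 6 of the 9 genes, Ppara, Pparg, Cpt1a, Acadvl, Hadhb and Pdk4, had opposite signs in the number sets. The share of all genes tested with opposite signs was not counted, and the high set rests on control replicate 1 as its only control.

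Leaving out control replicate 1 changed the count over the 9 genes to 4 lower (Ppara, Cpt1a, Acadm and Pdk4) and 1 higher (Acadl). Calls rose over the whole table as well, to 2170 lower and 2457 higher of the 16247 genes tested in that fit. With the number set as a term the count over the 9 genes was 1 lower (Acadm) and 1 higher (Acadl). Over all 15893 genes that fit called 1415 lower and 1477 higher. Control replicate 1 also had the lowest sum of the 10 absorptive colonocyte markers, 17930 CPM, where Ccna2-KO libraries ranged over 26910 to 30660 CPM and control libraries up to 26310 CPM. The single markers were divided. Krt20, Car1, Ceacam20, Cyp2c55 and Slc9a3 were lowest in control replicate 1. Slc26a3, Car4, Aqp8 and Guca2a were lower in control replicate 4, and Car2 was higher in control replicate 1 than in any other control. For goblet cell markers control replicate 1 had the highest sum of all controls (18010 CPM, lowest control 8182 CPM), against 8426 to 13570 CPM in Ccna2-KO libraries. Its enteroendocrine sum was also the highest of the controls (276 CPM, lowest control 173 CPM), against 47.4 to 67.7 CPM in Ccna2-KO libraries. Of those markers Gcg (44.5 CPM), Pyy (29.5 CPM) and Chgb were highest in this control. Tph1 (17.7 CPM) and Neurod1 (1.29 CPM) were lower in it than in any other control, and Chga lay within the other controls. The part of cell makeup in the levels of Ppara, Cpt1a and Pdk4 was not tested, and in bulk RNA fewer cells of a type cannot be told apart from less RNA per cell.

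Per kilobase of 1 curated transcript per gene, the order of levels in Ccna2-KO libraries ran from Acadl (148 CPM per kilobase) over Hadhb (140), Acadvl (129), Hadha (108), Pparg (104), Cpt1a (79.5), Acadm (73.0) and Pdk4 (27.1) to Ppara (11.8). In control libraries the means were 118 for Acadl, 143 for Hadhb, 132 for Acadvl, 99.0 for Hadha, 115 for Pparg, 97.2 for Cpt1a, 95.4 for Acadm, 42.3 for Pdk4 and 23.0 CPM per kilobase for Ppara. Pdk4 and Ppara were lowest in both groups. These values divide the CPM of the whole gene, over all its transcripts, by the length of that 1 transcript. The transcript made up 28.35% of Ppara and 30.25% of Cpt1a in Ccna2-KO libraries, and 31.55% and 28.33% in control libraries. The place of these genes in the order is therefore less certain. In control libraries the means of Acadl, Pparg, Hadha, Cpt1a and Acadm lay closer together than the SD of Cpt1a (22.3 CPM per kilobase). That SD is over 4 libraries and describes Cpt1a alone, and the order of these means was not tested. Acadl did lie above Acadm in every control library. Its counts there were 1.103 to 1.239 times those of Acadm, and its transcript is the shorter of the pair.

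Across libraries, after the mean of each group was taken off log2 CPM, Ppara, Cpt1a and Pdk4 had high correlations that rested in part on control replicate 1. Pearson's r was 0.97 for Ppara with Cpt1a, 0.96 for Ppara with Pdk4 and 0.90 for Cpt1a with Pdk4 over 8 libraries, which share control replicate 1 as their far point. Without that library r was 0.83, 0.53 and 0.18 in the same order over 7 libraries, while Pparg with Cpt1a had 0.92 with it and 0.93 without it. Acadm and Acadl had an r of 0.25, and of -0.15 without control replicate 1. The genes outside the set whose level was most like the mean of Acadm, Acadl, Acadvl, Hadha and Hadhb by the same measure were Lemd3, Dgke, Ascc3, Gpbp1l1 and AA986860, with r of 0.99 each over 8 libraries and of 0.966 to 0.996 over 7. These values describe the libraries and carry no test.

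Of 25 tested genes of 27 in a list of other mitochondrial oxidation genes, 1 rose and 1 fell, with a median log2 fold change of -0.07 (all genes tested, -0.01). Acsl5, which activates long-chain fatty acids in the intestine, rose by 0.57 on the log2 scale (SE 0.11, edgeR adjusted p = 0.0114), with 142, 139, 158 and 136 CPM in Ccna2-KO replicates 1 to 4 against 110, 97.8, 97.4 and 82.4 CPM in control replicates 1 to 4. Eci1, an isomerase needed for unsaturated fatty acids, fell by 0.61 (SE 0.12, adjusted p = 0.0141), with 32.7 to 36.4 CPM in Ccna2-KO and 42.3 to 63.1 CPM in control libraries. Neither gene's groups overlapped. The partners of Cpt1a in carnitine transport did not pass: Cpt2 had a log2 fold change of 0.16 (SE 0.11, adjusted p = 0.416) and the carrier Slc25a20 one of 0.39 (SE 0.14, adjusted p = 0.117). In this list 20 of 25 genes had the same sign in both number sets, and 3 of the 9 did. The share over all genes tested was not counted, and control replicate 1 was the only control of the high set. DESeq2 called 1 gene of this list higher and 4 lower. With the number set as a term 4 rose and 5 fell, and without control replicate 1 the counts were 4 and 4. Each of these fits also called more of all genes tested than the main fit did. Without Ccna2-KO replicate 1 none fell, with an edgeR adjusted p of 0.0561 for Eci1.

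Of 19 tested genes of 20 in peroxisomal oxidation, 1 rose and 1 fell by edgeR (median -0.03). DESeq2 called 3 of them higher and 1 lower, and the edgeR fit without control replicate 1 called 3 higher and 2 lower. Both of these fits called more of all genes tested than the main fit did. Slc27a2, a very long-chain acyl-CoA synthetase and fatty acid transporter, fell by 2.99 on the log2 scale (SE 0.24, edgeR adjusted p = 0.000193), with 0.472 to 0.593 CPM in Ccna2-KO and 3.73 to 5.83 CPM in control libraries. It had the largest fold change of this list and was low in both groups. Acox2, an oxidase of branched chains and bile acid precursors, rose by 1.02 (SE 0.24, adjusted p = 0.0230), a call lost without Ccna2-KO replicate 2 or 3 or control replicate 3 or 4 (adjusted p up to 0.0687) and with the number set as a term (0.0501).

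**Figure D4:**
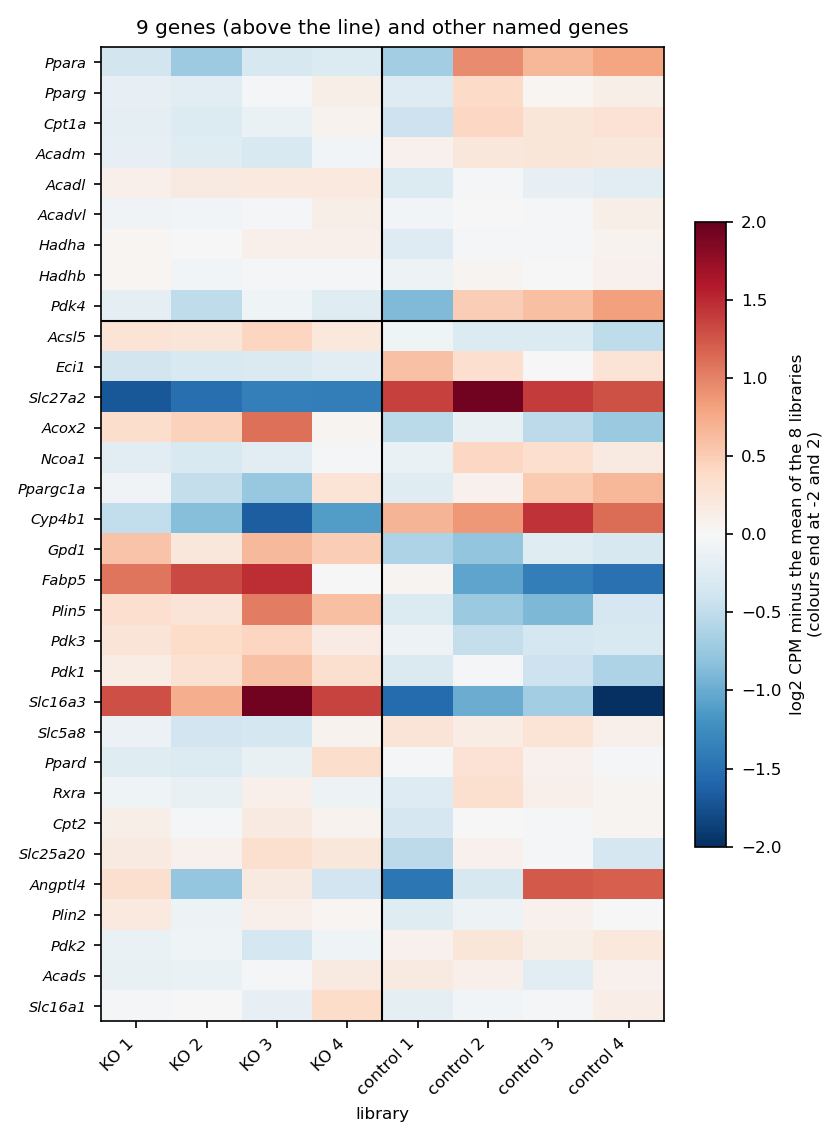
log2 CPM of the 9 genes and the other named genes in each library, minus the gene's mean over the 8 libraries, with Ccna2-KO libraries left of the line and control libraries right of it. Colours end at -2 and 2. Slc27a2 and Cyp4b1 are low and Slc16a3 and Gpd1 high in the Ccna2-KO libraries. Control replicate 1 lies among the Ccna2-KO libraries for Ppara and below them for Cpt1a and Pdk4.

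None of 17 tested PPAR partners and coregulators of 18 listed passed by edgeR, with 1 at an unadjusted p under 0.05, and DESeq2 called 1 (median -0.13). Ppard, the third PPAR and abundant in gut epithelium, had a log2 fold change of -0.14 (SE 0.16, adjusted p = 0.645), and Rxra, the dimer partner of the PPARs, one of -0.13 (SE 0.13, adjusted p = 0.587). Ncoa1, a coactivator of nuclear receptors, had the smallest adjusted p of the list by edgeR, 0.0745, with a log2 fold change of -0.41 (SE 0.13). Without control replicate 1 its log2 fold change was -0.51 with an adjusted p of 0.00343, and that fit called 3 genes of this list lower and 1 higher. That fit also called more of all genes tested than the main fit did. Ppargc1a, which drives mitochondrial genes, had a log2 fold change of -0.51 (SE 0.25, adjusted p = 0.246).

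Of 33 listed PPAR targets outside oxidation, 20 were tested, 4 rose and 1 fell (median 0.07). The list holds genes named as targets in liver, fat or muscle, and its 13 members not tested included Fabp1, Fabp4 and the Cyp4a genes. Gpd1, which makes glycerol 3-phosphate for lipid synthesis, rose by 0.96 on the log2 scale (SE 0.15, edgeR adjusted p = 0.00430), with 186, 148, 198 and 177 CPM in Ccna2-KO replicates 1 to 4 against 82.4, 73.2, 107 and 101 CPM in control replicates 1 to 4. Cyp4b1, a fatty acid hydroxylase of the P450 family, fell by 2.02 (SE 0.25, adjusted p = 0.00176), with 7.08 to 15.8 CPM in Ccna2-KO and 35.6 to 60.5 CPM in control libraries. These genes kept their groups apart in all 8 libraries, in opposite directions.

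Fabp5, a fatty acid carrier, rose by 1.89 (SE 0.41, adjusted p = 0.0176), although Ccna2-KO replicate 4 (7.84 CPM) lay just below control replicate 1 (8.12 CPM), and the call was lost without Ccna2-KO replicate 2 or 3 or control replicate 2, 3 or 4 (adjusted p up to 0.0568). Plin5, a lipid droplet protein, rose by 1.12 (SE 0.27, adjusted p = 0.0283) at 0.959 to 1.62 CPM in Ccna2-KO and 0.430 to 0.662 CPM in control libraries, a call lost in 6 of the 8 fits without 1 library, all but those without Ccna2-KO replicate 2 or control replicate 1. The gene left, Plin4, a related droplet protein, falls outside the rule for named genes and was named after its values were seen, with a log2 fold change of 1.86 and an adjusted p of 0.0324. Plin4 was low in both groups, at 0.418 to 1.12 CPM in control libraries. Ccna2-KO replicate 3 held 5.43 CPM, and the other Ccna2-KO libraries 1.41 to 2.29 CPM. Its call was lost without Ccna2-KO replicate 1, 2 or 3 or control replicate 2 or 3 (adjusted p up to 0.0806) and with the number set as a term (0.0875). The common PPAR response genes Angptl4 and Plin2 had log2 fold changes of -0.64 (SE 0.53, adjusted p = 0.496) and 0.12 (SE 0.11, adjusted p = 0.562). In the Ccna2-KO libraries the 8 tested of 10 markers of small intestinal enterocytes, which handle dietary lipid, summed to 689 to 974 CPM, against 281 to 589 CPM in control libraries, and 5 of the 8 rose. Of 10 absorptive colonocyte markers, 1 rose (Car2) and 9 did not pass. Their part in the values of this list was not tested.

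The pyruvate dehydrogenase list had 12 genes, all tested, of which 2 rose and none fell by edgeR (median -0.03). Both were kinases of the Pdk4 family. Of the 12, 5 had an unadjusted p under 0.05. DESeq2 called 3 higher and 1 lower (Pdk2), and the edgeR fit without control replicate 1 called 4 higher and 1 lower. Each of these fits also called more of all genes tested than the main fit did. Pdk1 stood at 60.8, 68.0, 82.4 and 68.2 CPM in Ccna2-KO replicates 1 to 4, against 45.1, 53.2, 40.9 and 35.7 CPM in control replicates 1 to 4, and rose by 0.68 on the log2 scale (SE 0.14, edgeR adjusted p = 0.0156), a call lost without Ccna2-KO replicate 3 (adjusted p = 0.0508). Pdk3 stood at 28.7, 31.0, 32.5 and 27.2 CPM in Ccna2-KO replicates 1 to 4, against 22.6, 17.4, 19.0 and 19.6 CPM in control replicates 1 to 4, and rose by 0.60 (SE 0.11, adjusted p = 0.00968). Pdk2 had a log2 fold change of -0.33 (SE 0.095) that missed the threshold (adjusted p = 0.0549), with no overlap of the groups. The 4 kinases thus did not share a direction: Pdk1 and Pdk3 had positive values in both number sets (0.66 and 0.64 for Pdk1, 0.54 and 0.44 for Pdk3, low set first), and Pdk4 a negative value in the low set only.

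Of 8 listed genes for the uptake and activation of short-chain fatty acids, 6 were tested, 1 rose and none fell by edgeR (median -0.16), with 3 at an unadjusted p under 0.05 and 1 called lower by DESeq2 (Slc5a8). The gene that rose, Slc16a3, is best known as a lactate exporter and not as a butyrate carrier. It stood at 27.6, 18.6, 43.0 and 28.7 CPM in Ccna2-KO replicates 1 to 4, against 3.90, 5.71, 6.95 and 2.70 CPM in control replicates 1 to 4, a log2 fold change of 2.61 (SE 0.33, edgeR adjusted p = 0.00187), with 2.49 within the low and 2.93 within the high set. The butyrate carriers did not pass. Slc5a8 stood at 215, 181, 184 and 247 CPM in Ccna2-KO replicates 1 to 4, against 280, 261, 283 and 250 CPM in control replicates 1 to 4 (log2 fold change -0.38, SE 0.12, adjusted p = 0.0798), and Slc16a1 had a log2 fold change of 0.09 (SE 0.14, adjusted p = 0.747).

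**Figure D5:**
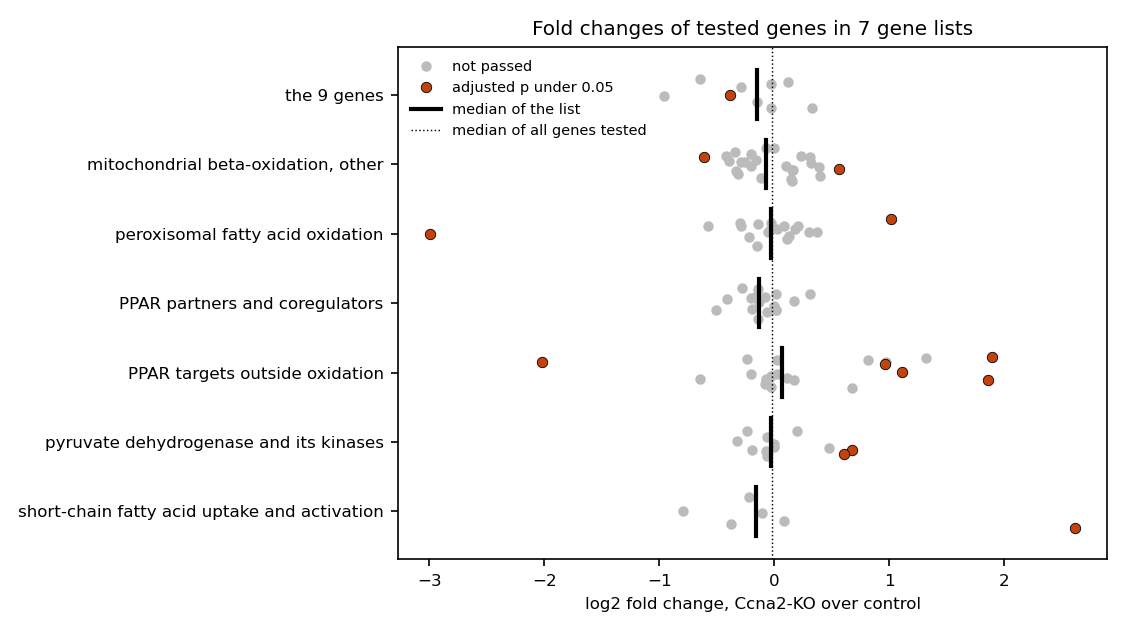
log2 fold change (Ccna2-KO over control) of every tested gene in the set of 9 and in 6 pathway lists, with filled points for an adjusted p under 0.05 and bars for list medians. The medians lie between -0.16 and 0.07, near that of all genes tested (-0.01), and the genes that passed fall on both sides.

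Over the 6 lists, 9 of 99 genes tested rose and 3 fell, together 12.1% of the 99, the background share over all genes tested (12.1%). Other cell types also differed between the groups. The 8 T cell markers tested, of 9 listed, summed to 6.78 to 14.8 CPM in Ccna2-KO and 26.2 to 132 CPM in control libraries, and all 8 fell. Enteroendocrine markers summed to 47.4 to 67.7 CPM in Ccna2-KO and 173 to 276 CPM in control libraries, and 4 of 6 fell. Of the other marker lists, 2 of 5 tested tuft cell genes fell, 1 of 7 leukocyte genes rose and 1 fell, 1 of 2 endothelial genes fell, and the 1 muscle gene tested rose, at 1.11 to 1.69 CPM in Ccna2-KO and 0.160 to 0.545 CPM in control libraries (Des). No fibroblast gene of 4 and no goblet cell gene of 7 passed by edgeR, with 1 and 0 at an unadjusted p under 0.05. Of the fat cell list only Pck1 was expressed enough to test, a gluconeogenic gene that intestinal epithelium also makes, and it fell by 1.66 on the log2 scale (SE 0.10, edgeR adjusted p = 9.67e-05), with 52.1 to 64.8 CPM in Ccna2-KO and 175 to 204 CPM in control libraries. The part of these cells in the values of the 9 genes was not tested.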

How the data were processed

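The deposited table holds estimated counts per RefSeq transcript for 8 libraries. Per the submitters' processing notes the authors used kallisto and the mouse build GRCm38 (mm10). The sources used here give no kallisto version. This tool shares reads between transcripts they fit equally, which makes single transcripts less certain than gene sums. Strandedness was not given in the sources used here. Of 107193 transcripts, 687 had no symbol (3.19% to 5.51% of the counts) and stayed out of library sizes and tests.

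Counts were summed per symbol and rounded. Genotype was tested with edgeR 4.0.16 (under R 4.3.3, with limma 3.58.1 voom and DESeq2 1.42.0 as alternatives), with its default low-count filter, TMM scaling, robust quasi-likelihood F tests on 4 Ccna2-KO and 4 control libraries, and Benjamini-Hochberg adjustment over 15893 genes at 0.05. CPM uses TMM-scaled library sizes, and SDs are over 4 libraries. The fit was first tested on simulated data.

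Groups and replicate numbers came from the sample titles. The 9 genes, the 6 pathway lists and the cell type markers were chosen with earlier results of these data known. The rule for named genes takes the 9 genes, at most 4 passing genes per list (the 2 smallest adjusted p where fewer than 2 passed), a few genes by name, the 5 genes most like the mean of the dehydrogenases and trifunctional subunits, and markers that move with them. Coordinates are from GENCODE and promoters from RefSeq, both on GRCm38. Alternatives were scaling by upper quartile or by RLE, testing all genes with counts, keeping genes at 1 CPM or more in each library of either group, DESeq2, limma voom, non-robust estimates, the replicate number or the number set as a covariate, single transcripts, and leaving out each library. A few genes under this rule and 1 further list are not reported here, and protein sequences were not used.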

Additional observations from a re-analysis of the deposited data

Results flagged for a closer look

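Each of 32 named genes was examined in both groups for a library far from the other 3 of its group, which makes 64 sets of 4 values on the log2 scale. Chance marks about 1 in 20 such sets, and 2 of the 64 were marked, no more than that share. Ppara in control replicate 1 stood at 33.0 CPM, where the other 3 controls lay between 85.4 and 103 CPM. Acadl in Ccna2-KO replicate 1 stood at 269 CPM, just below 287 to 290 CPM in the others, a gap that is wide only beside their narrow range, and above every control.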

How the results depend on the processing

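Over all genes, 1017 rose and 907 fell. DESeq2 gave 1431 that fell, and the number set as a covariate 1415. Leaving out 1 library gave 572 to 2457 higher and 400 to 2170 lower. Among the 9 genes none rose and 1 fell. One rose (1, Acadl) with upper quartile scaling, the filter of 1 CPM, DESeq2, limma voom, non-robust estimates and the number set as a covariate. The count that fell was 2 by DESeq2 and 0 with no filter, where the adjusted p of Acadm was 0.0515. Leaving out 1 library gave 0 to 1 higher and 0 to 4 lower, the highest without control replicate 1. Over the 6 lists, 9 rose and 3 fell. The number that fell was 9 by DESeq2 and 10 with the number set as a covariate, and leaving out 1 library gave 4 to 18 higher and 2 to 11 lower. RLE scaling moved none of these counts by over 1.5 times.

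With the number set as a covariate the sign turned for Pparg (0.031), Acadvl (0.038), Hadhb (0.011), Ppard (0.024) and Angptl4 (0.026). The transcript of Cpt1a with the highest mean had 0.10. Leaving out 1 library moved the log2 fold change of Acadvl between -0.072 and 0.0064 and that of Slc16a1 between -0.031 and 0.15. None of these 7 genes passed in the fit of all libraries, and the cause of the changes was not tested.

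Replicate numbers gave no sign of pairing the libraries. The check could not exclude pairing, because control replicate 1, far from the other controls, moved the control mean. Over 15893 genes, libraries of the same number had deviations from their group means that correlated at -0.07, -0.35, -0.26 and 0.15, and no Ccna2-KO library was closest to its own number. With the replicate number as a block, 619 genes rose and 368 fell, 0 of the 9 genes fell (Acadm, -0.39, adjusted p = 0.131) and 2 of the list genes fell. Eci1 (adjusted p = 0.0560), Plin4 (0.0774), Plin5 (0.103) and Pdk3 (0.0540) also missed the threshold, and the block changed no other call among the named genes.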
